A study of Mus musculus with 6 samples.

Results

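The 9 genes described here encode proteins that rebuild triglyceride from absorbed fat and package it into lipid droplets, and their symbols were matched to the deposited table. They are Acsl3, Acsl5, Mogat2, Gpat3, Agpat2, Dgat1, Dgat2, Fitm2 and Plin3. All 9 of 9 were found among the 45777 genes of the table, and all 9 were among the 18456 genes that passed the filter on low counts. Total RNA of mouse small intestine was sequenced in 6 libraries. The 3 control libraries carry the label GFP (a green fluorescent protein), with replicates 1-1, 1-4 and 3-1, and the other 3 are labelled as overexpressing PKCzeta (the atypical protein kinase made from the gene Prkcz), with replicates 2-1, 4-1 and 4-2. All 6 titles begin with the letters DIO, and the labels give no strain, age, vector or time. The study set out to list the genes that differ after overexpression of this kinase.

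Prkcz itself did not separate the labels. Libraries are compared in CPM, which are counts scaled to the size of each library times a factor for its make-up (TMM). A larger factor gives a lower CPM. The factors did not overlap between the groups, at 0.929, 0.9735 and 0.8814 under GFP against 1.002, 1.049 and 1.194 under PKCzeta. In CPM Prkcz stood at 70.5, 98.6 and 96.9 under GFP against 82.5, 100.1 and 57.0 under PKCzeta. Its log2 fold change was -0.15 (SE 0.24, edgeR adjusted p 0.950), and it was 0.053 on log2(TPM + 1), where TPM are the authors' values scaled to transcript length and library. Every direction given here is therefore one between labels. Each library held between 77573133 and 93742978 counts, and mitochondrial genes took from 2.92% to 10.7% of them in ranges that overlapped between the groups. Of the 18456 genes, 0 (0%) passed an adjusted p of 0.05 in edgeR, limma voom and limma on TPM, and 1012 had an unadjusted p under 0.05 in edgeR. DESeq2 was run on the whole table with its own filter, which left 27608 genes without an adjusted p, and 87 genes passed there. The number that opens each replicate name was 1 or 3 in the GFP group and 2 or 4 in the PKCzeta group, so whatever it stands for cannot be told apart from the label.

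Dietary fat enters the enterocyte, the absorptive cell of the intestinal lining, as fatty acids and monoacylglycerol. Acyl-CoA synthetases activate the fatty acids, and acyltransferases join them back to monoacylglycerol or, by another route, to glycerol-3-phosphate, until triglyceride is complete. The product is either stored for a time in cytosolic lipid droplets, which carry coat proteins, or secreted in chylomicrons.

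Over all genes tested, 45.7% had a log2 fold change below 0, and each count of lower genes given here stands beside that share. In the libraries labelled PKCzeta, 7 of the 9 genes had lower mean levels and 6 were lower in each PKCzeta library than in any GFP library. These 6 were Dgat2, Dgat1, Gpat3, Mogat2, Plin3 and Acsl5, at 0.614 to 0.685 times the GFP level. Among all genes tested, 5.66% were lower without overlap between the groups and 4.72% were higher without overlap, and 0 of the 9 were higher in that way. The same 6 had an unadjusted p under 0.05 in edgeR, against 3.07% of all genes tested that were lower at that p. Of the 9, 0 passed an adjusted p of 0.05 in edgeR, DESeq2, limma voom or limma on TPM, so no single gene is called changed. The median log2 fold change of the 9 was -0.55, and that of all genes tested was 0.035. A piece of intestine holds many cell types, and fewer cells of a type cannot be told apart from less RNA per cell.

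**Figure D1:**
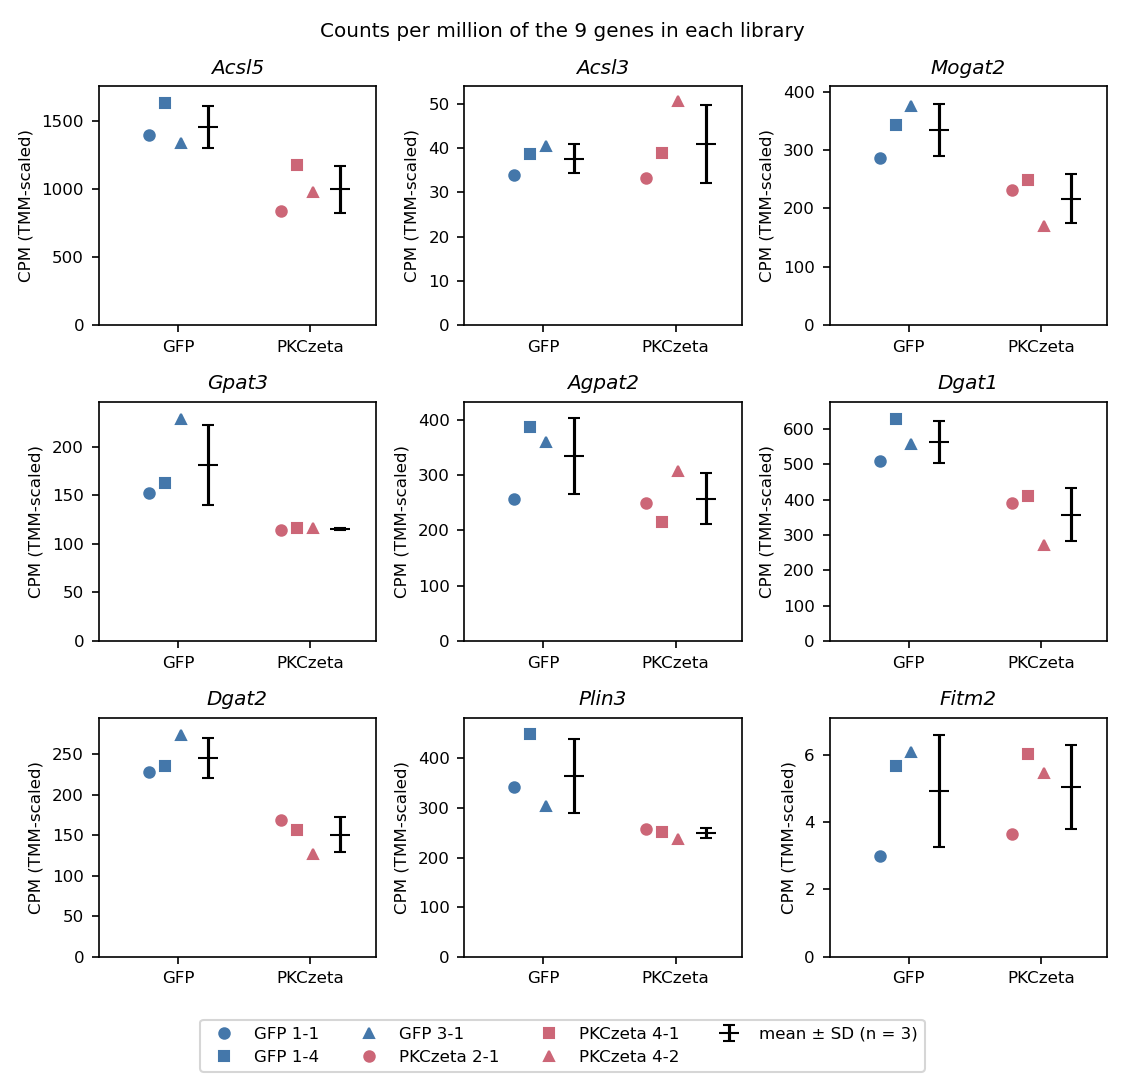
Level of each of the 9 genes in CPM (vertical axis, from 0) in the 3 GFP and 3 PKCzeta libraries, with one point per library and the mean ± SD beside each group. For Acsl5, Mogat2, Gpat3, Dgat1, Dgat2 and Plin3 each PKCzeta point lies below each GFP point, while the points of Agpat2, Acsl3 and Fitm2 overlap.

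Levels between genes are compared in TPM, which the authors scaled to transcript length. In the GFP libraries Acsl5 had the highest mean TPM of the 9, with 666 ± 117 (SD, n = 3). Dgat1 came next with 345 ± 56.5, then Agpat2 with 264 ± 62.7, Mogat2 with 222 ± 27.4 and Plin3 with 201 ± 55.7. The ranges of Dgat1 and Agpat2, of Agpat2 and Mogat2, and of Mogat2 and Plin3 overlapped. Within single libraries, Dgat1 was above Agpat2 in 3 of 3 GFP libraries and 5 of all 6, and Agpat2 was above Mogat2 in 3 of 3 and 6 of 6. Mogat2 was above Plin3 in 2 of 3 and 4 of 6, so the order of this pair was mixed. Below them Dgat2 had 128 ± 7.10 TPM, Gpat3 73.4 ± 12, Acsl3 11.4 ± 1.11 and Fitm2 3.51 ± 1.18, with ranges that were apart from one neighbour to the next. The raw counts behind these values ran from 238 reads (Fitm2) to 142837 reads (Acsl5) in a library.

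The first step is the activation of fatty acids. Acsl5 (Entrez 433256, chromosome 19 from 55251861 to 55296628, plus strand, mm10) encodes the main long-chain acyl-CoA synthetase of the small intestine. It was at 1393, 1632 and 1339 CPM in GFP replicates 1-1, 1-4 and 3-1 and at 835, 1176 and 979 CPM in PKCzeta replicates 2-1, 4-1 and 4-2. The lowest GFP library was above the highest PKCzeta library. The log2 fold change came to -0.55 (SE 0.20) with a 95% interval of -1.01 to -0.084 (unadjusted p 0.0259, adjusted p 0.871 in edgeR).

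Acsl3 (Entrez 74205, chromosome 1 from 78657825 to 78707743, plus strand) encodes a synthetase of the endoplasmic reticulum that is known for moving onto growing lipid droplets. It was at 33.9, 38.6 and 40.4 CPM under GFP against 33.3, 38.9 and 50.5 CPM under PKCzeta. The groups overlapped, and PKCzeta replicate 4-2 alone stood above all GFP libraries. Between the groups the log2 fold change came to 0.12 (SE 0.19) with a 95% interval of -0.32 to 0.56 (edgeR adjusted p 0.950), and it was -0.054 without PKCzeta replicate 4-2. The gene Utp14b starts at the same position and overlaps Acsl3 over 9777 bases on the same strand, with 24.6% of the Acsl3 count, so the Acsl3 count is uncertain where reads could belong to either.

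Acsl5 and Acsl3 thus had unlike values although they carry out the same reaction. The log2 ratio of Acsl5 to Acsl3, in which the scaling of a library cancels, was 5.36, 5.40 and 5.05 under GFP against 4.65, 4.92 and 4.28 under PKCzeta. The groups did not overlap, with a mean difference of -0.66. An exact permutation test (two-sided) gave p = 0.1, the smallest that 3 against 3 can give, or 0.4 after adjustment over the 4 ratios tested. In TPM there were 49.6 to 63.2 transcripts of Acsl5 for each of Acsl3 under GFP against 29.0 to 45.7 under PKCzeta.

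The DNA before an annotated start site is printed for 3 members, so that members that were lower and one that was not can be set side by side. RefSeq's promoter table (GRCm38.p6) holds 6 of the 9 members, and Mogat2, Dgat1 and Dgat2 are not among the 6. Acsl5 and Plin3 were lower without overlap and Acsl3 was not. The runs are the 250 bases before the start site that the table gives, 5′ to 3′, and none of the 3 holds an annotated exon. The Acsl5 start site lies inside the extent given for the gene, so its run is not upstream of the whole gene. Capitals mark matches on either strand to the GC box (GGGCGG), the CCAAT box (CCAAT) or the core of a cyclic AMP response element (TGACGT).
Acsl5 (chr19:55253119-55253368, plus strand): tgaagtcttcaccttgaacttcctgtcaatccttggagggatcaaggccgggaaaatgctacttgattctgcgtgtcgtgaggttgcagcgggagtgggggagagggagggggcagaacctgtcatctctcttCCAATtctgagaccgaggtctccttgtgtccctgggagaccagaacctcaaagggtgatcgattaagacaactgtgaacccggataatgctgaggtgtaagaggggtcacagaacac
Plin3 (chr17:56290512-56290761, minus strand): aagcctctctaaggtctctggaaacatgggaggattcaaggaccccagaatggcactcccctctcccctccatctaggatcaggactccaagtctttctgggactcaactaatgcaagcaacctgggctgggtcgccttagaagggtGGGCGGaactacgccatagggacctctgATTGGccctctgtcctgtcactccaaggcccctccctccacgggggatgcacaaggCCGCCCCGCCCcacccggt
Acsl3 (chr1:78657575-78657824, plus strand): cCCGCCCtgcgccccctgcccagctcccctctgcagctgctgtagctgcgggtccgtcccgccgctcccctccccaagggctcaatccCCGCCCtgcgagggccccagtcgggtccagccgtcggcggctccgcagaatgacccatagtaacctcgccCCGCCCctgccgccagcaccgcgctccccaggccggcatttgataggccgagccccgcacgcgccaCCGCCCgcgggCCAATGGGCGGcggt

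The Acsl3 run had 5 GC boxes, 1 of them abutting a CCAAT box, and a GC content of 75.6%. The Acsl5 run had 0 GC boxes, 1 CCAAT box and a GC content of 52.8%. Plin3 had 3 GC boxes, 2 of which overlap, and 1 CCAAT box, with a GC content of 60%. Among the members not printed, the Gpat3 window lies inside the gene's extent and holds exons of Gpat3 and 4930458D05Rik, and the Fitm2 window holds an exon of 2310001K24Rik. Gpat3 had 3 GC boxes and the only response element core, Agpat2 had 2 GC boxes and Fitm2 had 1. Over the 32851 windows of the table, 32.7% hold a GC box, 33.8% a CCAAT box and 6.47% the response element core. The matches are letters in these windows only.

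The monoacylglycerol route is the one the intestine is known for. Mogat2 (Entrez 233549, chromosome 7 from 99219084 to 99238611, minus strand) encodes the enzyme that turns monoacylglycerol into diacylglycerol. It was at 286, 344 and 375 CPM under GFP against 232, 249 and 169 CPM under PKCzeta. No PKCzeta library reached the lowest GFP library. The log2 fold change came to -0.63 (SE 0.20) with a 95% interval of -1.08 to -0.17 (unadjusted p 0.0129, adjusted p 0.858 in edgeR). The related gene Mogat1 had a count of 0 in 5 of the 6 libraries, so Mogat2 made up 99.99% to 100% of the TPM of the pair.

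The glycerol-3-phosphate route starts with Gpat3 (Entrez 231510, chromosome 5 from 100845665 to 100899102, plus strand), which adds the first acyl chain. It was at 152, 162 and 229 CPM under GFP against 114, 116 and 116 CPM under PKCzeta. The 3 PKCzeta libraries differed by a factor of 1.02 and the GFP libraries by a factor of 1.5, the highest being replicate 3-1. Its log2 fold change came to -0.65 (SE 0.18) with a 95% interval of -1.08 to -0.23 (unadjusted p 0.00775, adjusted p 0.858 in edgeR). Agpat2 (Entrez 67512, chromosome 2 from 26593057 to 26604417, minus strand) adds the second chain. It was at 258, 386 and 360 CPM against 249, 216 and 308 CPM, so PKCzeta replicate 4-2 lay above GFP replicate 1-1 and the groups overlapped. Its log2 fold change came to -0.38 (SE 0.21) with a 95% interval of -0.87 to 0.11 (adjusted p 0.917 in edgeR).

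The log2 ratio of Mogat2 to Gpat3 sets the 2 routes side by side. It was 0.913, 1.08 and 0.712 under GFP against 1.03, 1.1 and 0.546 under PKCzeta. The groups overlapped fully, with a mean difference of -0.012 (exact permutation test, two-sided, p = 1). Both genes were therefore lower by about the same factor in these means, although leaving out 1 library moved the difference between -0.12 and 0.16.

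Diacylglycerol acyltransferases close the route by adding the last chain. Dgat1 (Entrez 13350, chromosome 15 from 76502012 to 76512021, minus strand) encodes an enzyme of the endoplasmic reticulum that handles much of the fat absorbed by enterocytes. It was at 508, 627 and 557 CPM under GFP against 391, 410.4 and 271 CPM under PKCzeta. PKCzeta replicate 4-2 was the lowest of the 6. This was a log2 difference of -0.66 (SE 0.20, 95% interval -1.13 to -0.19, unadjusted p 0.0120, adjusted p 0.858 in edgeR).

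Dgat2 (Entrez 67800, chromosome 7 from 99153663 to 99182713, minus strand) encodes an enzyme unrelated in sequence to DGAT1 that belongs to the same family as MOGAT2. It was at 228, 236 and 274 CPM under GFP against 169, 157 and 127 CPM under PKCzeta. Of the 9 genes it had the lowest p, 0.00304 before adjustment and 0.858 after it in edgeR, and it ranked 54 among the 18456 genes by p. Its log2 fold change came to -0.70 (SE 0.17) with a 95% interval of -1.09 to -0.32. Dgat2 and Mogat2 are neighbours, 36370 bases apart on the same strand with 0 annotated genes between them.

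The 2 acyltransferases differed little in proportion between the labels. The log2 ratio of Dgat2 to Dgat1 was -1.16, -1.41 and -1.02 under GFP against -1.21, -1.39 and -1.09 under PKCzeta, a mean difference of -0.033 (exact permutation test, two-sided, p = 0.8). In TPM, Dgat1 made up 72.7% ± 2.70 of the pair under GFP and 73.2% ± 2.04 under PKCzeta (SD, n = 3). The ranges of this share, 70.3% to 75.6% and 71.3% to 75.3%, overlapped fully.

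At the lipid droplet, Plin3 (Entrez 66905, chromosome 17 from 56278962 to 56290511, minus strand) encodes perilipin 3, a coat protein that binds newly formed droplets. It was at 342, 449 and 305 CPM under GFP against 259, 252 and 238 CPM under PKCzeta. The PKCzeta libraries were close together and all below the GFP range. The log2 fold change came to -0.55 (SE 0.18) with a 95% interval of -0.97 to -0.13 (unadjusted p 0.0169, adjusted p 0.866 in edgeR). Fitm2 (Entrez 228859, chromosome 2 from 163468703 to 163472629, minus strand) encodes a membrane protein of the endoplasmic reticulum needed for droplets to bud towards the cytosol. It was at 3.00, 5.66 and 6.08 CPM under GFP against 3.63, 6.01 and 5.46 CPM under PKCzeta. In both groups 1 library stood low, and the log2 difference of 0.036 (SE 0.34, 95% interval -0.74 to 0.82, edgeR adjusted p 0.991) turned to -0.24 without GFP replicate 1-1. With 238 to 571 reads per library, an interval of that width leaves differences of the size seen in the other members undetectable for Fitm2.

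Plin2, the perilipin that coats most cytosolic droplets, was compared with Plin3. It was at 60.7, 122 and 94.9 CPM under GFP against 77.1, 102 and 91.3 CPM under PKCzeta, with a log2 difference of -0.038 (SE 0.25, edgeR adjusted p 0.989) that turned to 0.264 on log2(TPM + 1). The log2 ratio of Plin3 to Plin2 was 2.49, 1.88 and 1.68 under GFP against 1.74, 1.31 and 1.38 under PKCzeta. These groups overlapped, the mean difference was -0.54, and p was 0.2 by the exact permutation test (0.4 adjusted over the 4 ratios). Without GFP replicate 1-1 the difference was -0.30.

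**Figure D2:**
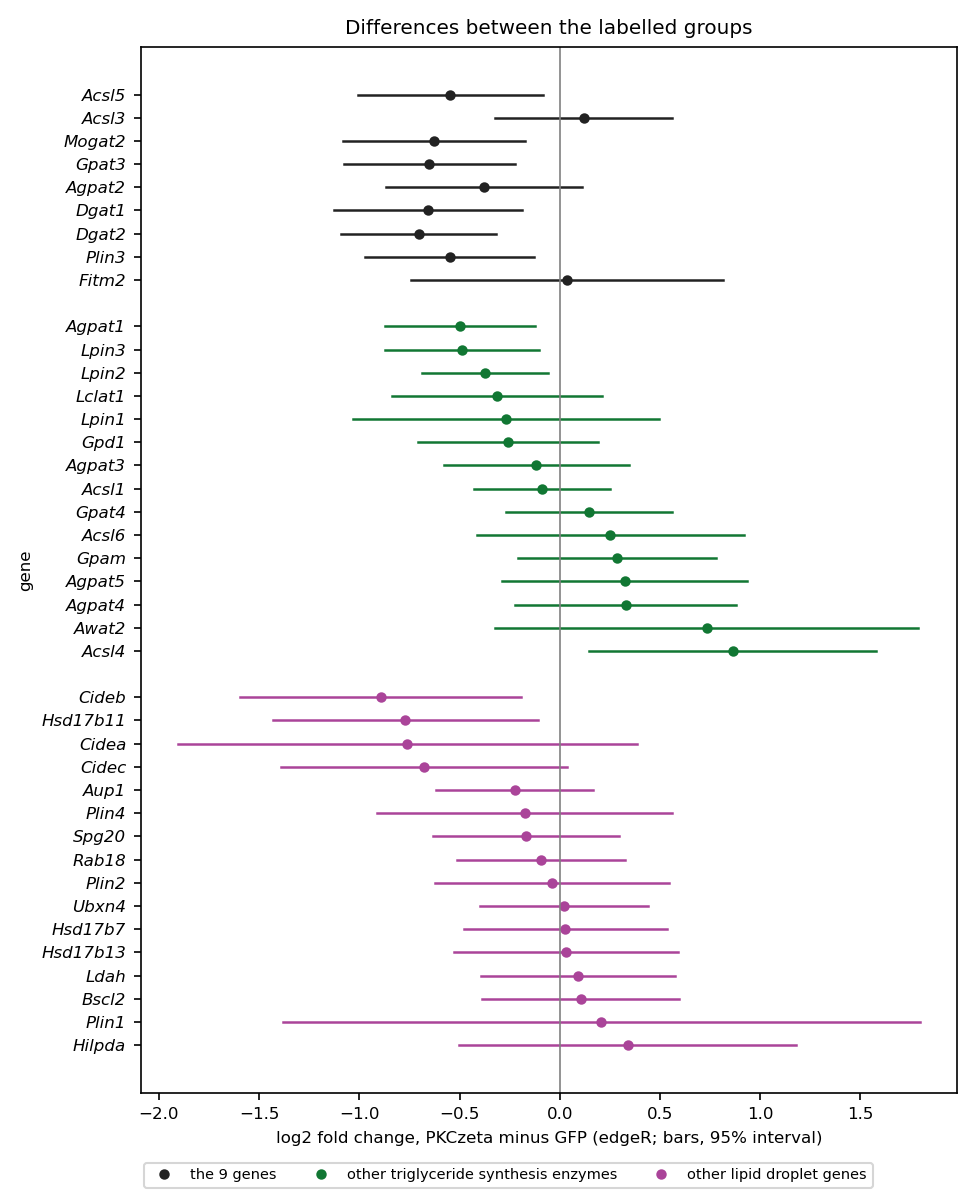
Log2 fold change of PKCzeta minus GFP (horizontal axis, edgeR) with its 95% interval for the 9 genes, the 15 tested genes of other triglyceride synthesis enzymes and the 16 tested genes of other lipid droplet proteins. The whole interval lies below 0 for 6 of the 9 genes, for 3 of the 15 (Agpat1, Lpin3 and Lpin2) and for 2 of the 16 (Cideb and Hsd17b11), and each list also holds values above 0.

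The other enzymes of triglyceride synthesis had values on both sides of 0. Of 15 tested, 8 were lower and 7 higher, with a median log2 fold change of -0.090. At an unadjusted p under 0.05 in edgeR, 3 were lower and 1 was higher, and 0 passed the adjusted threshold. Among all genes tested, 3.07% were lower and 2.41% were higher at that p. Agpat1, another acyltransferase for the second chain, was at 55.6 ± 5.44 CPM under GFP against 39.4 ± 4.73 under PKCzeta (SD, n = 3), with a log2 difference of -0.50 (SE 0.16, adjusted p 0.860 in edgeR). Lpin3, a phosphatidate phosphatase that makes diacylglycerol, was at 92.7 ± 15.8 against 66.1 ± 2.98 CPM. The related Lpin2, chosen after its values were seen, was at 199 ± 7.71 against 153 ± 8.17 CPM. Acsl4, a synthetase that prefers arachidonate, was at 23.8, 10.5 and 15.2 CPM under GFP and at 24.4, 36.8 and 28.7 CPM under PKCzeta, a log2 fold change of 0.86 (SE 0.31, adjusted p 0.870 in edgeR).

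In 3 of the families, the abundant member took a smaller share in each PKCzeta library than in any GFP library. Acsl5 made up 95.3%, 96.0% and 94.8% of the TPM of the 5 Acsl genes under GFP and 91.9%, 93.6% and 92.4% under PKCzeta. Gpat3 made up 78.5%, 79.5% and 83.7% of the TPM of the glycerol-3-phosphate acyltransferases under GFP and 71.9%, 70.2% and 70.7% under PKCzeta. The other glycerol-3-phosphate acyltransferases were Gpat4, with a log2 difference of 0.15 (SE 0.18), and the mitochondrial enzyme gene Gpam, with 0.29 (SE 0.21), while Acsl1 had -0.090 (SE 0.15). Agpat2 made up 84.7% ± 1.5 of its family under GFP and 83.1% ± 3.14 under PKCzeta (SD, n = 3), shares that overlapped. Plin3 made up 81.0%, 75.1% and 72.3% of the perilipins against 72.1%, 66.0% and 67.7%, so its groups were apart by less than 1 percentage point. These shares were set side by side after the values were seen and were not tested.

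**Figure D3:**
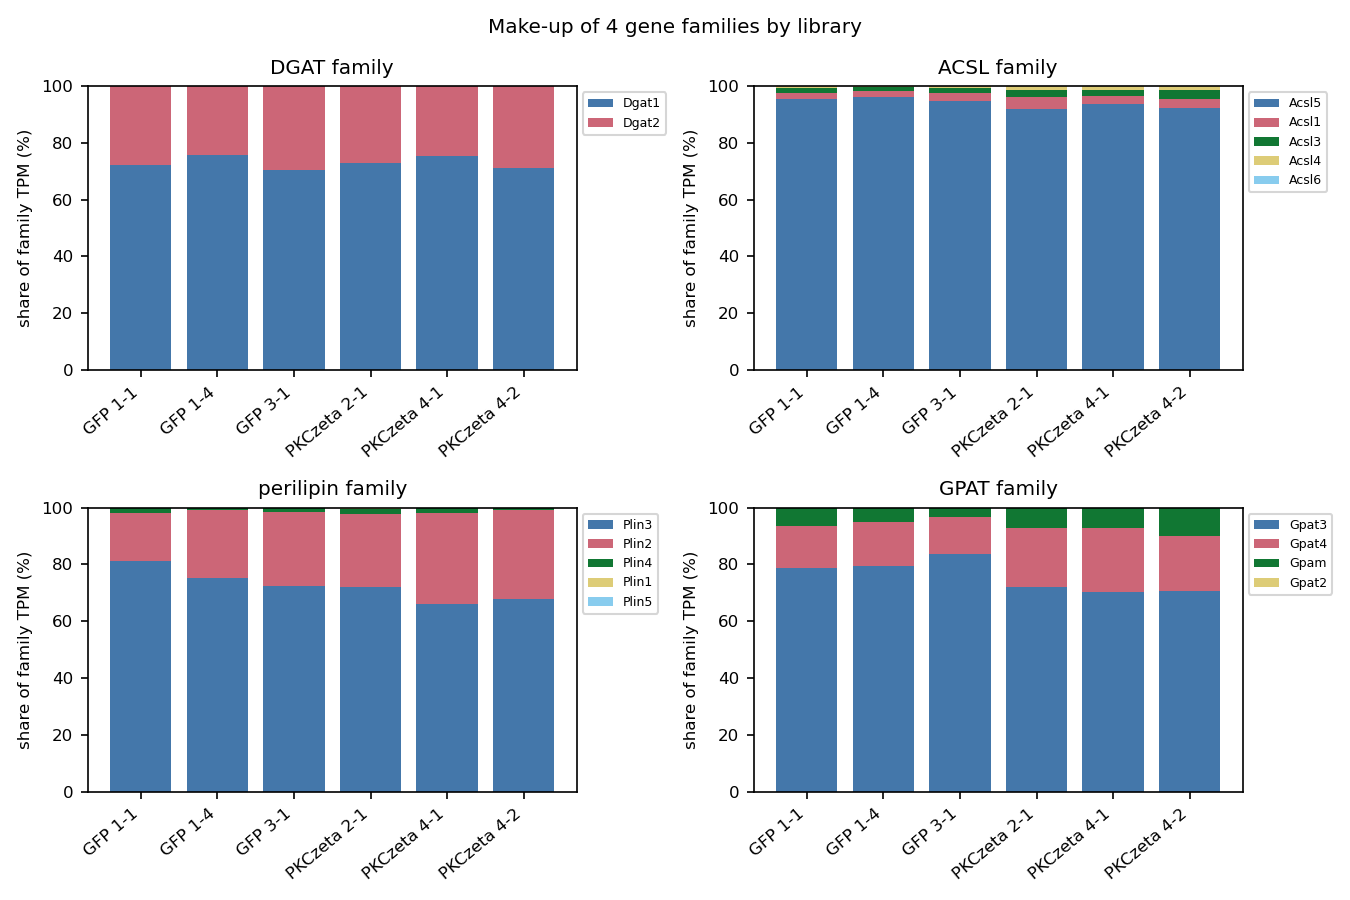
Share of the summed TPM (vertical axis, percent) that each gene takes within the DGAT, ACSL, perilipin and GPAT families, with one bar per library. Dgat1 stays between 70.3% and 75.6% in the 6 libraries, and the Acsl5 and Gpat3 shares are lower in each PKCzeta library than in each GFP library.

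Other genes of the lipid droplet were mostly near 0. Of 16 tested, 9 were lower and 7 higher, with a median of -0.066. At an unadjusted p under 0.05 in edgeR, 2 were lower, against 3.07% of all genes tested. Cideb, which works in lipoprotein lipidation as well as in droplet fusion, was at 31.0 ± 6.40 CPM under GFP against 16.7 ± 6.0 under PKCzeta (SD, n = 3), with groups that did not overlap. Hsd17b11, a droplet-bound dehydrogenase, was at 180.1 ± 30.0 against 106 ± 38.7 CPM. Cidec, a droplet fusion protein, was at 42.6, 70.7 and 30.3 against 26.3, 36.5 and 26.9 CPM, with overlap. Their log2 fold changes were -0.89 (SE 0.30), -0.77 (SE 0.29) and -0.68 (SE 0.31), with adjusted p of 0.867, 0.871 and 0.917 in edgeR. The seipin gene Bscl2, chosen after its values were seen, had 0.10 (SE 0.21).

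Genes of chylomicron assembly and of triglyceride breakdown were mostly lower, where 45.7% of all genes tested were lower. Of 21 tested genes of chylomicron assembly, 19 were lower, 12 of them at an unadjusted p under 0.05 in edgeR, with a median log2 fold change of -0.47. Among all genes tested, 3.07% were lower at that p. In both lists 0 genes passed an adjusted p of 0.05 in edgeR. Apoc3, an apolipoprotein of chylomicrons, was at 46.8 ± 10 CPM under GFP against 21.3 ± 7.43 under PKCzeta (SD, n = 3). Mttp, which loads lipid onto apolipoprotein B, and Apoa4, another apolipoprotein, had log2 fold changes of -0.94 (SE 0.23) and -1.58 (SE 0.46). The groups overlapped for Apoa4, with 772 CPM in GFP replicate 3-1 against 857 CPM in PKCzeta replicate 4-1. Of 16 tested genes of triglyceride breakdown, 15 were lower, 3 of them at that p, with a median of -0.53. These 3 were the carboxylesterase genes Ces2a, Ces2c and Ces2e, with -0.98 (SE 0.27), -0.68 (SE 0.21) and -0.65 (SE 0.24). The lipase genes Lipe and Pnpla2 and the monoacylglycerol lipase gene Mgll, chosen after their values were seen, had -0.56 (SE 0.28), -0.40 (SE 0.23) and -0.015 (SE 0.19).

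Fatty acid uptake and binding gave a mixed picture. Of 13 tested genes 8 were lower and 5 higher, with a median of -0.14. At an unadjusted p under 0.05 in edgeR, 3 were lower, against 3.07% of all genes tested. Slc27a4, which encodes a fatty acid transport protein that also has acyl-CoA synthetase activity, was at 796, 794 and 951 CPM under GFP against 556, 528 and 377 CPM under PKCzeta. Lpcat3, which remodels phospholipids, was at 192, 218 and 222 against 141, 151 and 131 CPM. Fabp2, the intestinal fatty acid binding protein, was at 15340, 12240 and 9697 against 6468, 8541 and 3146 CPM. Their log2 fold changes were -0.80 (SE 0.20), -0.58 (SE 0.14) and -1.04 (SE 0.39), with an adjusted p of 0.858 or more in edgeR. Cd36, chosen after its values were seen, had 0.051 (SE 0.19). The counts and medians of these lists were not tested against each other.

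Markers of the absorptive cell, like most of the 9 genes, were lower under the PKCzeta label. A score per library was taken as the mean, over a list, of the log2 CPM deviation from the mean of the 6 libraries. For the 9 genes it was -0.00056, 0.33 and 0.32 under GFP and -0.27, -0.13 and -0.25 under PKCzeta. For 18 enterocyte markers that hold no lipid gene it was 0.42, 0.43 and 0.39 against -0.33, 0.10 and -1.02, and all 18 were lower. Their summed level was 42520 to 45240 CPM under GFP against 22090 to 39280 under PKCzeta, and 0 of the 18 were at 0 in every library. GFP replicate 1-1 was lowest of its group for the 9 genes only, while the marker scores of the GFP libraries were nearly equal. PKCzeta replicate 4-2 was lowest of its group for the markers only. Whether the scores of the markers and of the 9 genes go together within a group of 3 libraries was not tested. The markers common to all epithelial cells overlapped, with summed levels of 12020 to 15870 against 12710 to 13760 CPM. With the enterocyte score added to the model, the median log2 fold change of the 9 genes was -0.38, and 1 of the 9 was lower at an unadjusted p under 0.05 in edgeR. That gene was Agpat2 with -0.77 (SE 0.32), and none of the 6 genes named above for their p was among the calls of that fit, in which 0.731% of all genes tested were lower at that p. Mogat2 had -0.23, Dgat1 -0.21, Dgat2 -0.47, Acsl5 -0.38, Plin3 -0.47 and Gpat3 -0.67 there. Without the score Gpat3 had -0.65. The enterocyte score itself did not overlap between the groups, so this fit cannot fully separate it from the label. SEs were larger in it, 0.28 against 0.20 for Mogat2 and 0.32 against 0.18 for Gpat3, so a call can be lost without a smaller difference. With the score of the common epithelial markers the median was -0.53 and 5 of the 9 (Mogat2, Dgat1, Dgat2, Gpat3 and Plin3) were lower at that p, against 2.13% of all genes tested.

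Markers of other cell types that a piece of intestine can hold were summed in the same way, and 45.7% of all genes tested were lower. Adipocyte markers, which include Cidec and Plin1, summed to 115 to 132 CPM under GFP against 53.8 to 107 under PKCzeta. Of 13 tested, 9 were lower, and the lowest library was PKCzeta replicate 4-2. Cidec made up 70.7 of the 132 CPM in GFP replicate 1-4. Aqp7 was at 15.46, 13.73 and 27.11 CPM under GFP against 8.922, 10.75 and 3.052 under PKCzeta. The adipocyte score, in which each gene counts alike, overlapped between the groups. The defining marker Adipoq was at 4.99 to 5.53 against 1.46 to 7.5 CPM. The defining hepatocyte marker Alb was at 0 in 4 libraries and at most 0.0605 CPM in the others. The hepatocyte list, in which Cps1 is also a gene of the intestine, summed to 534 to 809 against 435 to 843 CPM, with 6 of 10 tested genes higher. Cps1 made up 494 of the 534 CPM in GFP replicate 1-1. Fgb and Fga had the largest differences of this list, 3.29 (SE 0.96) and 1.79 (SE 0.66), at no more than 1.29 and 0.996 CPM in any library. Smooth muscle markers summed to 1020 to 2257 against 1469 to 1767 CPM, with 12 of 12 lower, and leukocyte markers to 629 to 2363 against 1079 to 1568 CPM, with 13 of 15 tested higher. Jchain, a plasma cell gene that made up 2074 of the 2363 CPM in GFP replicate 1-4, had a log2 fold change of -0.36 (SE 0.54). The neutrophil genes S100a8, S100a9 and Csf3r had 2.97 (SE 0.81), 3.18 (SE 0.98) and 1.67 (SE 0.51), each with an adjusted p of 0.858 in edgeR. In PKCzeta replicate 2-1 these genes were at 1.863, 1.679 and 0.954 CPM, near the highest GFP values of 1.815, 1.886 and 0.926 CPM. Their higher values were those of PKCzeta replicates 4-1 and 4-2. Crypt markers were higher in 9 of 12, with sums of 1050 to 1358 against 964 to 1604 CPM. Markers of the proximal small intestine were lower in 13 of 14 tested, with sums of 2097 to 2547 against 1170 to 1830 CPM, and markers of the distal part in 13 of 15, with 11500 to 16130 against 8620 to 11680 CPM. The part of these cell types and regions in the differences of the 9 genes was not tested. The fit with the enterocyte score cannot decide it for that cell type, because the score was itself apart between the groups.

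**Figure D4:**
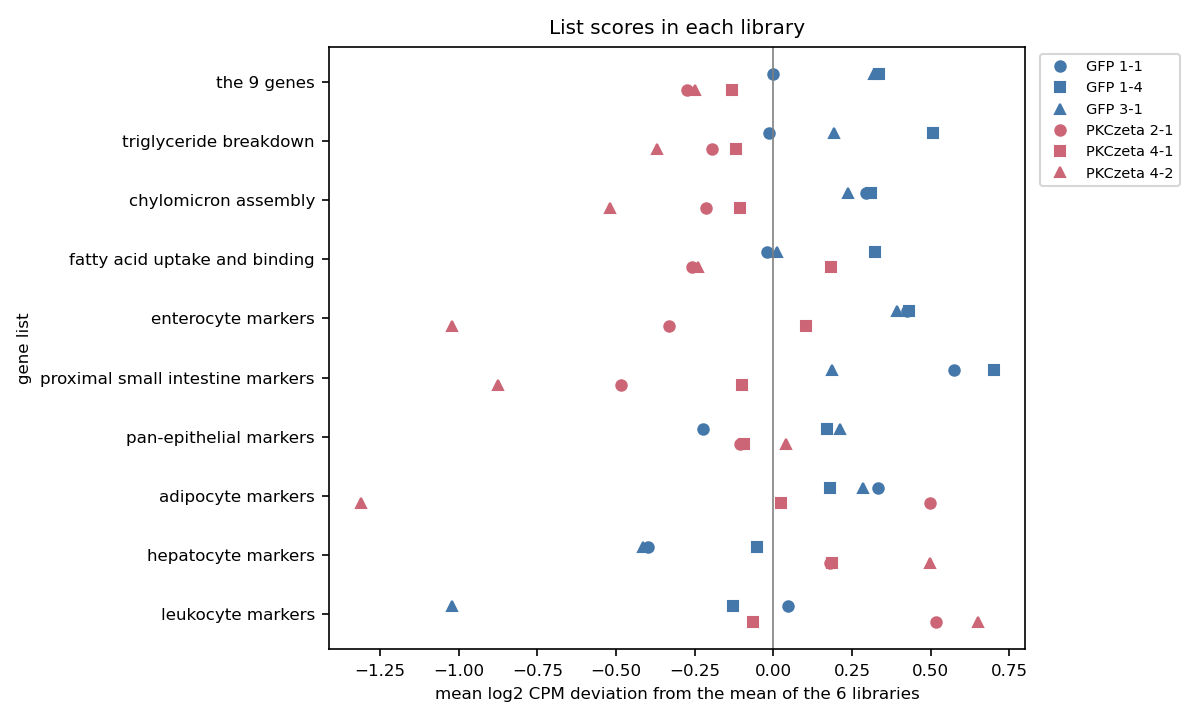
Score of each gene list in each library (horizontal axis, mean log2 CPM deviation from the mean of the 6 libraries), with GFP and PKCzeta libraries drawn as separate points. For the 9 genes, triglyceride breakdown, chylomicron assembly, enterocyte markers and proximal markers all GFP points lie above all PKCzeta points. For hepatocyte markers all lie below, and for the other lists drawn they overlap. PKCzeta replicate 4-2 is lowest for triglyceride breakdown, chylomicron assembly, and enterocyte, proximal and adipocyte markers.

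The size of the differences moved with the scaling. On log2(TPM + 1) the median of all genes tested was 0.14 and that of the 9 genes was -0.33, a difference of -0.47, against -0.58 with CPM. In TPM 3 of the 9 genes, Mogat2, Dgat1 and Dgat2, were lower without overlap, where 2% of all genes tested were lower and 8.72% were higher in that way, and Mogat2 by a narrow margin, 191.7 TPM in GFP replicate 1-1 against 191.6 TPM in PKCzeta replicate 4-1. Gpat3, Acsl5 and Plin3 overlapped there. At an unadjusted p under 0.05 in limma on log2(TPM + 1), Dgat2 alone of the 9 was lower, against 1.08% of all genes tested. Leaving out 1 library at a time kept the median of the 9 between -0.45 and -0.66.

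**Figure D5:**
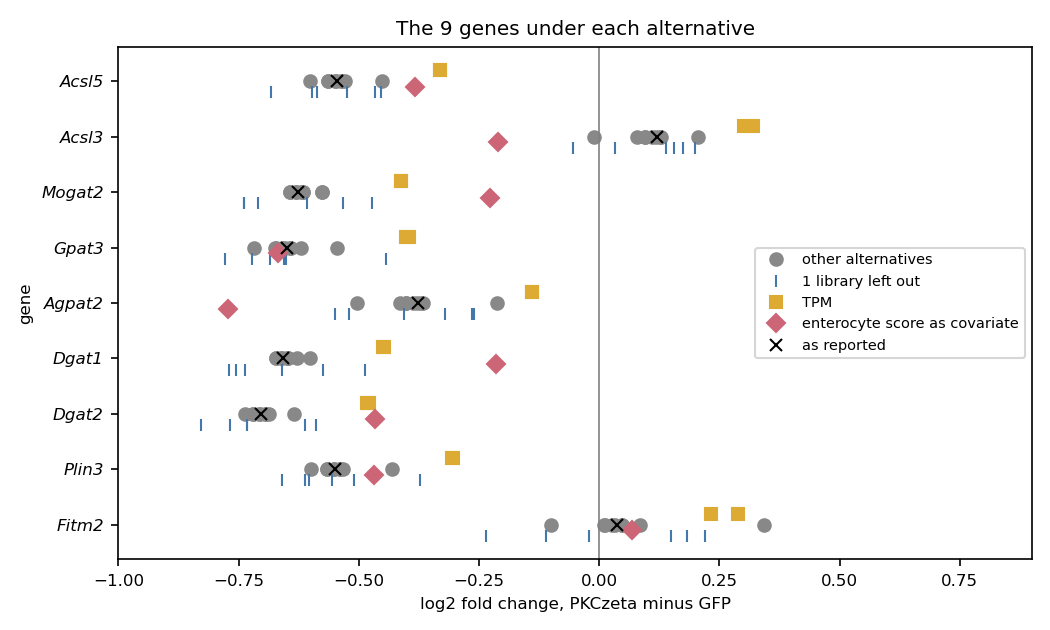
Log2 fold change of PKCzeta minus GFP (horizontal axis) for each of the 9 genes as reported (cross), with 1 library left out (ticks), on log2 TPM (squares), with the enterocyte score as a covariate (diamonds) and under the other alternatives (circles). The values of Dgat2, Gpat3, Dgat1, Mogat2, Plin3, Acsl5 and Agpat2 stay below 0 throughout, and those of Acsl3 and Fitm2 fall on both sides of 0.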

How the data were processed

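Total RNA of mouse small intestine was measured in 6 libraries, 3 with the GFP label and 3 with that of PKCzeta overexpression. The kit removes ribosomal RNA and keeps strand, per the labels' protocols. Build mm10 and the tools HISAT2, StringTie, Trimmomatic and FastQC are named in the submitters' processing notes. Tool versions, the counting program and its use of strand are not given in the sources used here. What the authors deposited are whole-number read counts per gene, with no normalisation. The deposited FPKM values, scaled to length and depth, were not used. The deposited TPM values, scaled to length and a fixed sum, were used for levels between genes, family shares and an alternative test.

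The counts went into edgeR 4.0.16 under R 4.3.3 (filterByExpr, TMM scaling, robust quasi-likelihood F test, two-sided), with p-values adjusted by the Benjamini-Hochberg method over 18456 genes and a threshold of 0.05. CPM values are TMM-scaled. Ratios of 4 gene pairs, on log2 CPM with a prior count of 2, had an exact permutation test. Of these, the edgeR step alone was run on simulated counts, and the outcome is not given here. The 9 genes, the 15 other lists and the tests were chosen with earlier results of these data known. The named genes are the 9, Plin2, Prkcz, the 3 genes of lowest p per pathway list and a mean CPM of 1 or more, and the 5 genes whose pattern is most like the 9. The rule also takes 3 genes per marker list, and marker lists are mostly given by counts and sums instead. Others are said to be chosen after their values were seen. Alternatives were other scalings, filters and tests (DESeq2 1.42.0, limma 3.58.1, sva 3.50.0), covariates, and each library left out. The labels do not say that libraries are separate animals, so p-values may measure technical spread only. Positions and promoters are RefSeq's for GRCm38.p6, the build mm10 names, and count from 1.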

Additional observations from a re-analysis of the deposited data

How the results depend on the processing

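DESeq2, with its own filter on the whole table, called 87 genes where edgeR called 0, and none of the 9 was among them (smallest adjusted p of the 9, 0.169 for Dgat2). In limma on log2(TPM + 1), 1 of the 9 genes (Dgat2) was lower at an unadjusted p under 0.05, against 1.08% of all genes tested. In TPM 3 of the 9 were lower without overlap, against 2% of all genes tested. Dgat2 was also the only one at that p on log2(TPM + 0.1), for which no share over all genes is given here. The medians of the 9 on these scales were -0.331 and -0.332. Adding the enterocyte score to the model gave a median of -0.383, or -0.357 after subtracting that of all genes, and 1 gene (Agpat2) had p under 0.05, while such genes went from 567 to 135 over all genes tested. Acsl3 turned to -0.011 with 1 surrogate variable and -0.21 with the enterocyte score, and ran from -0.054 to 0.20 with 1 library left out. Fitm2 turned to -0.10 with 1 surrogate variable and ran from -0.24 to 0.22 with 1 library left out. Plin2 turned to 0.092 in limma voom, 0.264 and 0.269 on log2(TPM + 1) and log2(TPM + 0.1), 0.203 with the common epithelial score and 0.046 with the enterocyte score, and ran from -0.278 to 0.210. Prkcz turned to 0.053 and 0.055 on the TPM scales and 0.413 with the enterocyte score, and ran from -0.346 to 0.047. With 1 library left out, the ratio of Dgat2 to Dgat1 ran from -0.139 to 0.054 and that of Mogat2 to Gpat3 from -0.116 to 0.161. The sign turned without PKCzeta replicate 4-2 for Acsl3 and Prkcz, without GFP 1-1, PKCzeta 4-1 or PKCzeta 4-2 for Fitm2, without GFP 1-4 or PKCzeta 2-1 for Plin2, without GFP 3-1 or PKCzeta 4-1 for Dgat2 to Dgat1, and without GFP 1-4 or PKCzeta 4-2 for Mogat2 to Gpat3. In these cases the cause was not tested. The other 7 members were lower in each alternative run. No paired analysis was possible because the groups share no replicate number. The fewest reads behind a member were the 238 of Fitm2 in 1 library.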

Other observations

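Transcription factors known to act on intestinal lipid genes were lower in 18 of 21 tested, against 45.7% of all genes tested, and their median was -0.26 (log2 fold change). In edgeR 3 were lower at an unadjusted p under 0.05, against 3.07% of all genes tested. Creb3l3, a membrane-bound factor that acts on triglyceride metabolism, was at 320.0, 402 and 243 CPM under GFP against 158, 219 and 125 CPM under PKCzeta. Gata6 was at 57.9, 48.9 and 43.5 against 28.8, 36.3 and 34.0 CPM, and Gata4 at 7.22, 9.70 and 1.79 against 1.12, 0.738 and 1.08 CPM. None of these 3 overlapped between the groups, and their adjusted p was 0.858 in edgeR. Gata4 is also on the list of proximal small intestine markers, and the part of intestinal region in its difference was not tested. Hnf4a, a main regulator of enterocyte genes, chosen after its values were seen, was at 512, 563 and 602 against 446, 393 and 498 CPM without overlap, with a log2 fold change of -0.33 (SE 0.17, adjusted p 0.917 in edgeR). Pparg, Nr1h4 and Klf5, likewise chosen afterwards, had 0.11 (SE 0.22), 0.15 (SE 0.17) and 0.21 (SE 0.23).

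Over the 6 libraries, the genes outside the lists whose log2 CPM followed the mean of the 9 most closely were Slc30a6, Nat8f4, Tmem94, Lima1 and Nucb1. Pearson's r was 0.985, 0.977, 0.974, 0.973 and 0.971, picked from 7846 genes with a mean of at least 10 CPM. With 6 points that share their libraries and the group difference, these values describe likeness only. Their log2 fold changes were -0.36 (SE 0.17), -1.11 (SE 0.25), -0.34 (SE 0.16), -0.32 (SE 0.15) and -0.48 (SE 0.19), with adjusted p of 0.858 to 0.917 in edgeR.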
